A study of Mus musculus with 6 samples.

Results

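The 8 genes described here encode monocyte and eosinophil chemokines grouped with the receptors CCR2 and CCR3, and both receptors: Ccl2, Ccl7, Ccl8, Ccl11, Ccl12, Ccl24, Ccr2 and Ccr3. They were taken by symbol from a table of 770 genes, mostly of immune function, and all 8 were present. The RNA was taken from FFPE blocks (formalin-fixed and embedded in paraffin) of primary oral squamous cell carcinomas, which the chemical carcinogen 4NQO had induced in the mice of both groups. One group of 3 libraries came from mice given an agonistic anti-CD40 antibody, which activates CD40, a receptor of antigen-presenting cells. The other 3 libraries came from mice given vehicle. Mouse strain, sex and age, and the antibody's clone, dose and schedule, were not found in the labels. Whether the 3 samples of a group were separate animals is not stated either, so the p-values rest on a spread between samples that could be technical in part. Of the epithelial markers set as a check on the tissue, Cdh1 and Epcam lay above background in all 6 libraries and Muc1 in 5, whereas the keratin genes of that list were not analysed here.

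CCR2 is carried by classical monocytes and guides them out of the bone marrow and into inflamed tissue and tumours, where many become macrophages. Its main ligands in the mouse are CCL2, CCL7 and CCL12, monocyte chemoattractant proteins made by macrophages, fibroblasts, endothelium and tumour cells under inflammatory signals. CCR3 is the principal chemokine receptor of eosinophils, and the eotaxins CCL11 and CCL24 are its ligands. CCL11 is made largely by fibroblasts and epithelium, and CCL24 by macrophages, often under the type 2 cytokines IL-4 and IL-13. Mouse CCL8 is related to these proteins by sequence but signals mainly through CCR8.

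Ccl2, Ccl7, Ccl11, Ccl12 and Ccl8 follow each other in that order among the protein-coding genes of chromosome 11, Ccr3 and Ccr2 are neighbours on chromosome 9, and Ccl24 lies on chromosome 5, as placed by RefSeq on assembly GRCm38.p6. Promoter letters from RefSeq on the same assembly were matched for 4 of the 8 genes, Ccl8, Ccl12, Ccr2 and Ccr3. The windows of Ccl8 and Ccl12 are shown because these neighbouring genes had the same 3 libraries at the top of their order in the values that follow. Of these libraries, Ccl12 stood clear of background only in vehicle replicate 1. Ccl2 shared the order but had no promoter entry. Each line gives the 250 bases before the annotated start on the plus strand, with the letters TATAAA in capitals, at chr11:82114935-82115184 for Ccl8 and chr11:82101595-82101844 for Ccl12.
Ccl8: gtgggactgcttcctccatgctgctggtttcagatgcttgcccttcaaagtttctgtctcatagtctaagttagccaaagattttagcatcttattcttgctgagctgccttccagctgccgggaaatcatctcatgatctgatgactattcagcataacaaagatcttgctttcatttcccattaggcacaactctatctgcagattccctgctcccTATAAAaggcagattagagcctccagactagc
Ccl12: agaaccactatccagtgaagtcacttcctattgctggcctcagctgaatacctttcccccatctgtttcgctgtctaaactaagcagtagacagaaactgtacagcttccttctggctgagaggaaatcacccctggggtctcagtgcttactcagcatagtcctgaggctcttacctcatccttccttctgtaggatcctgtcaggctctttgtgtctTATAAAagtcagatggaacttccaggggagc

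TATAAA, read on both strands, began 32 bases before the start in Ccl8 and 31 bases before it in Ccl12, and 12.4% of all 32851 promoter windows of this length held it. Set base against base from the start, both windows had the same letter at 90 of 250 positions. How often other pairs of windows match was not computed, so this does not show whether they are related. Lined up at their TATAAA letters, the Ccl8 and Ccl12 windows matched at 82 of 249 positions. Neither held the κB form GGGNNNNNCC, the forms TTCNNNGAA and TTCNNNNGAA bound by STAT factors or the AP-1 form TGANTCA, which says only that these letters are not in the windows. The κB form was present in 45.8% of all windows and the AP-1 form in 6.75%. Of the receptor windows, that of Ccr3 held both and that of Ccr2 held none of the letters searched. The forms TTCNNNGAA and TTCNNNNGAA were present in 7.02% and 5.85% of all windows.

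Values are log2 normalized counts as the authors deposited them, and differences are anti-CD40 minus vehicle. Whole counts behind the values could be recovered, with totals between 333400 and 578598 over the 770 genes of a library. The median log2 value over all genes was 7.99, 8.19 and 7.90 in anti-CD40 replicates 1, 2 and 3. In vehicle replicates 1, 2 and 3 it was 8.17, 8.18 and 7.68, so vehicle replicate 3 was lowest over the table. Background was set for each library at the mean plus 2 SD of its 8 negative control counts, a limit of 24.7 to 26.6 counts. In log2 units the limit was 5.94, 6.02 and 6.24 in anti-CD40 replicates 1, 2 and 3, and 5.66, 6.52 and 5.57 in vehicle replicates 1, 2 and 3, since the libraries were scaled by different factors. By this measure 6 of the 8 genes lay above background in all 6 libraries, as did 523 of all 770 genes. Ccl12 did so in 5 libraries and Ccr3 in 2. The values are not per length and detection may differ between genes, so levels were compared between libraries and not between genes. In tumour tissue, fewer cells of a type and less RNA per cell cannot be told apart.

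None of the 8 genes passed the test: limma called 0 of 8 at an adjusted p of 0.05, as it called 0 of all 770 genes (0%). At an unadjusted p under 0.05 limma again had 0 of 8, where 25 of 770 genes (3.25%) passed, and limma-voom on the recovered counts gave 0 calls and 36 genes below 0.05 before adjustment. In the mean, 6 of the 8 genes were higher in anti-CD40 tumours and 2 lower, at a median difference of 0.09 log2 beside 0.04 over all genes. That median was −0.18 without vehicle replicate 3, 0.32 without vehicle replicate 1, 0.21 without vehicle replicate 2 and 0.19 without anti-CD40 replicate 1. With the same libraries left out, in this order, the median over all genes was −0.09, 0.07, 0.11 and 0.04. No gene of the 8 had groups that did not overlap. Over the table, 6.75% of genes lay higher in every anti-CD40 library than in any vehicle library, and 3.51% lay lower. Groups of 3 against 3 cannot give an exact permutation p under 0.1.

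**Figure D1:**
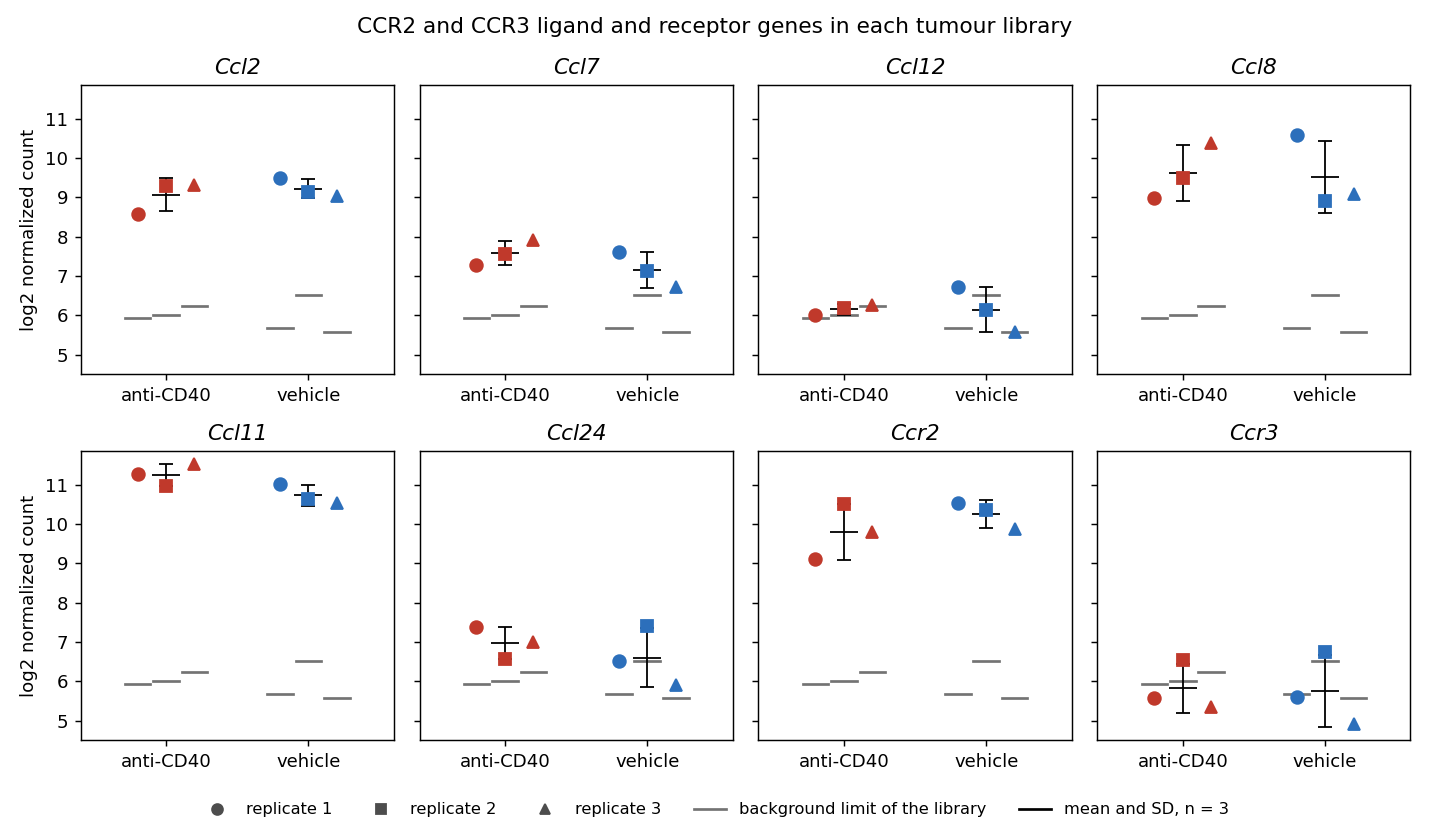
Log2 normalized count (vertical axis) of each of the 8 genes in the 3 anti-CD40 libraries (red, left) and the 3 vehicle libraries (blue, right), with the mean and SD (n = 3) in black and each library's background limit as a grey bar. The groups overlap for every gene, Ccl11 overlaps by 1 library on each side, and Ccl12 and Ccr3 lie close to the background limits.

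Among the CCR2 ligands, Ccl2, which encodes monocyte chemoattractant protein 1, was 8.59, 9.29 and 9.33 in anti-CD40 replicates 1, 2 and 3, against 9.50, 9.13 and 9.04 in vehicle replicates 1, 2 and 3. Anti-CD40 replicate 1 was the lowest of the 6 libraries and vehicle replicate 1 the highest. The groups averaged 9.07 ± 0.42 in anti-CD40 tumours and 9.22 ± 0.25 in vehicle tumours (SD, n = 3 each), a difference of −0.16 with a 95% confidence interval from −0.82 to 0.51 (limma adjusted p = 0.974). The direction rested on anti-CD40 replicate 1, without which the difference was 0.083. Without vehicle replicate 1 it was −0.017, and without anti-CD40 replicates 2 and 3 it was −0.27 and −0.29.

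Ccl7, which encodes monocyte chemoattractant protein 3, was 7.28, 7.57 and 7.90 in the anti-CD40 libraries and 7.62, 7.12 and 6.73 in the vehicle libraries. Anti-CD40 replicate 3 was highest, vehicle replicates 2 and 3 were lowest, and vehicle replicate 1 lay among the anti-CD40 values. The mean was 7.59 ± 0.31 in anti-CD40 tumours and 7.16 ± 0.45 in vehicle tumours (SD, n = 3 each), a difference of 0.43 with an interval from −0.28 to 1.14 (limma adjusted p = 0.974). It was positive with any 1 library left out, at 0.21 without vehicle replicate 3, 0.27 without anti-CD40 replicate 3 and 0.66 without vehicle replicate 1.

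Ccl12, a CCR2 ligand gene of the mouse, was 6.0, 6.19 and 6.27 in the anti-CD40 libraries, where it had 26, 28 and 26 counts, each at most 1.13 times the background limit. In the vehicle libraries it was 6.72, 6.13 and 5.57, with 55, 20 and 25 counts. Only vehicle replicate 1 stood clear of background, at 2.19 times the limit. Between means of 6.15 ± 0.14 in anti-CD40 tumours and 6.14 ± 0.58 in vehicle tumours (SD, n = 3 each), the difference of 0.012 had an interval from −0.73 to 0.76 (limma adjusted p = 0.994). Its sign turned once the mean of the negative controls was subtracted (−0.042), with centring on the library median (−0.0048) and with limma-voom (−0.028). It also turned without vehicle replicate 3 (−0.27), anti-CD40 replicate 3 (−0.047) or anti-CD40 replicate 2 (−0.0046), and was 0.30 without vehicle replicate 1 and 0.089 without anti-CD40 replicate 1.

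Ccl8, which encodes monocyte chemoattractant protein 2, varied most among the 6 genes above background in all libraries, over a range of 1.68 log2. It was 8.99, 9.51 and 10.40 in the anti-CD40 libraries and 10.59, 8.91 and 9.08 in the vehicle libraries, so each group held 1 library far above its other 2. These 2 libraries, anti-CD40 replicate 3 and vehicle replicate 1, had 480 and 836 counts. The mean was 9.63 ± 0.71 in anti-CD40 tumours and 9.52 ± 0.92 in vehicle tumours (SD, n = 3 each). The difference of 0.11 had an interval from −1.14 to 1.35 (limma adjusted p = 0.975). It was −0.28 without anti-CD40 replicate 3, −0.20 without vehicle replicate 2 and −0.12 without vehicle replicate 3, but 0.64 without vehicle replicate 1, 0.43 without anti-CD40 replicate 1 and 0.17 without anti-CD40 replicate 2. Vehicle replicate 1, anti-CD40 replicate 3 and anti-CD40 replicate 2 were, in this order, the 3 highest libraries of Ccl8, Ccl12 and also Ccl2. For Ccl12 the order below vehicle replicate 1 lay near background. Anti-CD40 replicates 3 and 1 both had 26 counts of Ccl12, so their order came from the library factors.

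Of the CCR3 ligands, Ccl11, the gene of eotaxin 1, had the largest difference and the lowest unadjusted p of the 8 genes. It was 11.27, 10.97 and 11.52 in anti-CD40 replicates 1, 2 and 3, with 1077, 820 and 1048 counts. In vehicle replicates 1, 2 and 3 it was 11.03, 10.63 and 10.53, with 1134, 483 and 857 counts. The groups overlapped through anti-CD40 replicate 2 and vehicle replicate 1. Means of 11.25 ± 0.28 in anti-CD40 tumours and 10.73 ± 0.26 in vehicle tumours (SD, n = 3 each) gave a difference of 0.52, or 1.44-fold, with an interval from −0.071 to 1.12. The unadjusted p was 0.0763, place 48 of 770 genes by p, and the limma adjusted p was 0.974. With 1 library left out the difference lay between 0.39 and 0.67. After quantile normalization the difference was 0.42 and the groups no longer overlapped, as for 43 of 770 genes (5.58%) that were higher in every anti-CD40 library under that setting.

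Ccl24, the gene of eotaxin 2, was 7.38, 6.57 and 7.0 in the anti-CD40 libraries and 6.50, 7.40 and 5.90 in the vehicle libraries. Its counts were between 32 and 71 in every library, at most 2.86 times the background limit. Vehicle replicate 2 and anti-CD40 replicate 1 were the 2 highest and vehicle replicate 3 was the lowest. The mean was 6.98 ± 0.41 in anti-CD40 tumours and 6.60 ± 0.76 in vehicle tumours (SD, n = 3 each), a difference of 0.38 with an interval from −0.59 to 1.35 (limma adjusted p = 0.974). Without vehicle replicate 3 it was 0.031, without anti-CD40 replicate 1 it was 0.18, without vehicle replicate 2 it was 0.78 and without anti-CD40 replicate 2 it was 0.59. The 2 libraries highest in Ccl24 were also the 2 highest in granule genes of immature myeloid cells. Over the 5 measured genes of that list the mean level was 8.78, 7.28 and 5.42 in anti-CD40 replicates 1, 2 and 3, and 4.95, 8.86 and 5.24 in vehicle replicates 1, 2 and 3. The part of these cells in the Ccl24 values was not tested.

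The receptor gene Ccr2 was 9.10, 10.52 and 9.80 in the anti-CD40 libraries and 10.54, 10.37 and 9.87 in the vehicle libraries. Anti-CD40 replicates 1 and 3 lay below all vehicle values, whereas anti-CD40 replicate 2 was the second highest of the 6 libraries. The mean was 9.80 ± 0.71 in anti-CD40 tumours and 10.26 ± 0.35 in vehicle tumours (SD, n = 3 each), a difference of −0.46 with an interval from −1.37 to 0.45 (limma adjusted p = 0.974). The sign was negative with any 1 library left out, but the size was not stable: −0.10 without anti-CD40 replicate 1, −0.31 without vehicle replicate 1 and −0.81 without anti-CD40 replicate 2. Of 12 measured markers of monocytes and macrophages, Ccr2 included, 8 were higher and 4 lower in the mean. Their median difference was 0.25 beside 0.04 over all genes, and limma called 0 of 12. Without vehicle replicate 3 that median was −0.039, with 6 markers higher and 6 lower, beside −0.09 over all genes. Without vehicle replicate 1 it was 0.39, beside 0.07 over all genes. The mean level of the list was 8.95, 9.27 and 9.03 in the anti-CD40 libraries and 9.23, 9.18 and 8.42 in the vehicle libraries, and 11 of its 12 genes lay above background in all 6.

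Ccr3, the eosinophil receptor gene, was 5.59, 6.53 and 5.35 in the anti-CD40 libraries and 5.60, 6.73 and 4.92 in the vehicle libraries, on counts of 19, 36 and 13 and of 24, 31 and 15. Only anti-CD40 replicate 2 and vehicle replicate 2 lay above background, at 1.46 and 1.17 times the limit. The difference of 0.071, between means of 5.82 ± 0.62 in anti-CD40 tumours and 5.75 ± 0.91 in vehicle tumours (SD, n = 3 each), had an interval from −1.12 to 1.26 (limma adjusted p = 0.988). It turned to −0.23 once the mean of the negative controls was subtracted, and to −0.34, −0.28 and −0.0035 without vehicle replicate 3, anti-CD40 replicate 2 and vehicle replicate 1. It was 0.56 without vehicle replicate 2, 0.31 without anti-CD40 replicate 3 and 0.19 without anti-CD40 replicate 1. Of the other eosinophil markers measured, Il5ra, the interleukin 5 receptor chain gene, was at or below background in all 6 libraries and Prg2, the gene of the major basic protein of eosinophil granules, in 3. Prg2 was 9.24, 7.09 and 5.14 in the anti-CD40 libraries and 4.40, 8.95 and 4.32 in the vehicle libraries. Its 3 highest libraries were the 3 highest in the granule genes above. Ccr3, Prg2 and Il5ra were all at or below background in anti-CD40 replicate 3 and in vehicle replicates 1 and 3.

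A difference between 2 genes within a library does not carry that library's scaling factor, apart from the effect of the offset on low counts. Ccl11 minus Ccl2 was 2.68, 1.68 and 2.19 log2 in anti-CD40 replicates 1, 2 and 3, against 1.52, 1.51 and 1.49 log2 in vehicle replicates 1, 2 and 3. All 3 anti-CD40 libraries lay above all vehicle libraries, with means of 2.19 ± 0.50 and 1.51 ± 0.018 (SD, n = 3 each). In counts this was 6.49, 3.23 and 4.60 of Ccl11 per count of Ccl2 in the anti-CD40 libraries and 2.89, 2.86 and 2.82 in the vehicle libraries. By exact binomial 95% intervals, which cover counting error only, these ratios ran from 5.50 to 7.69, from 2.80 to 3.73 and from 3.98 to 5.33 in the anti-CD40 libraries. In the vehicle libraries they ran from 2.57 to 3.24, from 2.39 to 3.43 and from 2.47 to 3.22, so anti-CD40 replicate 2 could not be separated from them by counting error. The SD of 0.018 log2 among vehicle libraries was smaller than the counting error of a single library, 0.084 to 0.13 log2, and therefore understates their spread. The mean difference of 0.68 log2 was 0.43 without anti-CD40 replicate 1 and 0.93 without anti-CD40 replicate 2.

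Of the 28 pairs of the 8 genes, 3 had groups that did not overlap, and 2 of these were among the 15 pairs of genes above background in all libraries. The second was Ccl7 with Ccl2: Ccl7 minus Ccl2 was −1.30, −1.72 and −1.42 log2 in the anti-CD40 libraries and −1.88, −2.01 and −2.31 log2 in the vehicle libraries, a difference of 0.59. Counting intervals of Ccl7 per Ccl2 overlapped between the groups, from 0.23 to 0.39 in anti-CD40 replicate 2 and from 0.21 to 0.33 in vehicle replicate 1. The third pair, Ccl7 with Ccl12, involved counts near background. Such separations were not rare in the table. For 41 of 522 other genes above background in all libraries (7.85%), the gene minus Ccl2 was higher in every anti-CD40 library than in any vehicle library. Ccl11 minus another gene was so for 153 of 522 genes (29.3%), and Ccl7 minus another gene for 97 of 522 (18.6%). Pooling the ligands by receptor gave no separation: Ccl11 and Ccl24 minus Ccl2, Ccl7 and Ccl12 was 2.04, 1.09 and 1.42 in the anti-CD40 libraries and 0.82, 1.56 and 1.10 in the vehicle libraries. That difference of 0.36 was 0.098 without anti-CD40 replicate 1, 0.19 without vehicle replicate 1, and 0.57 and 0.56 without anti-CD40 replicate 2 and vehicle replicate 2. Pairs were described and not tested, since they were looked at with the values known.

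**Figure D2:**
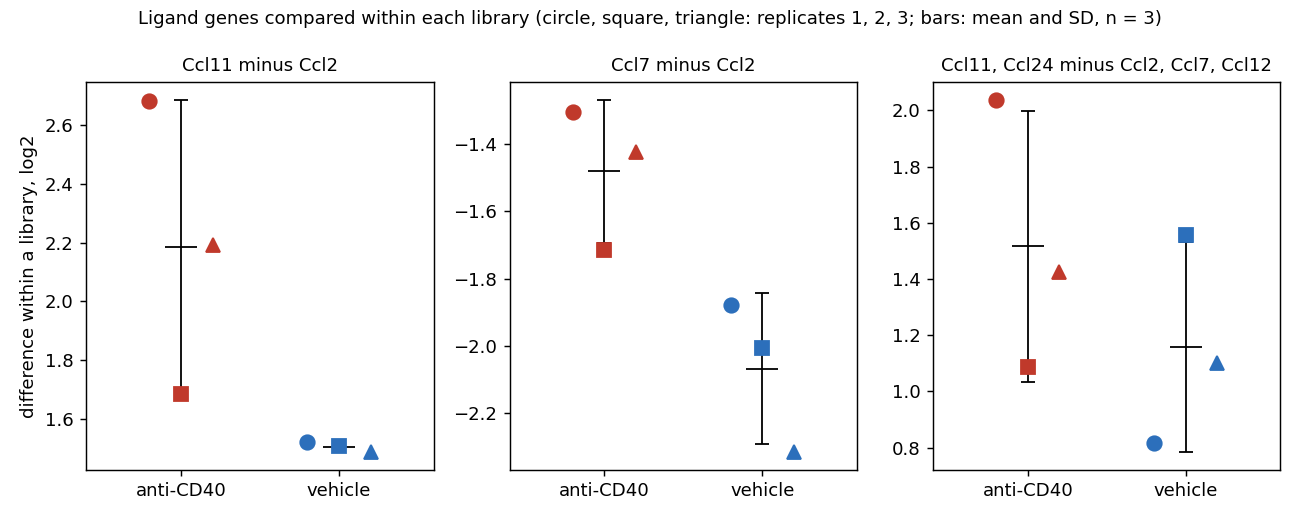
Difference between ligand genes within a library on the log2 scale (vertical axis) for Ccl11 minus Ccl2, Ccl7 minus Ccl2, and the mean of Ccl11 and Ccl24 minus the mean of Ccl2, Ccl7 and Ccl12, in anti-CD40 (red, left) and vehicle (blue, right) libraries, with mean and SD (n = 3). The groups are apart in the first and second panels and overlap in the third.

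The genes whose profiles over the 6 libraries were nearest to each of the 6 genes above background were found by the root mean square difference of centred log2 values, among 522 candidates. Nearest to Ccl2 were H2-Eb1, an MHC class II chain (0.093), Ly86, which encodes MD-1 (0.10), and the complement receptor gene C3ar1 (0.11). Ccl7 lay nearest to Bst1 (0.089), to C1qb, a chain of complement C1q (0.12), and to the interleukin 1 receptor gene Il1r1 (0.13). Nearest to Ccr2 was Cxcl16, which encodes the ligand of CXCR6 (0.13), and Tlr2 (0.17) was also among its nearest genes. These neighbours of Ccl2 and Ccr2 were again among the nearest after each gene was centred within its group. For Ccl7 this held for Il1r1 but not for Bst1 or C1qb.

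The eotaxin genes had other neighbours. Ccl11 lay nearest to Cma1, which encodes mast cell chymase (0.079), to Tnfsf13, the gene of the cytokine APRIL (0.085), and to Vwf, von Willebrand factor (0.093). Cma1 was 9.14, 8.89 and 9.38 in the anti-CD40 libraries and 8.95, 8.36 and 8.26 in the vehicle libraries, so that anti-CD40 replicate 3 was highest and vehicle replicate 3 lowest, as for Ccl11. Cma1 was picked for its likeness to Ccl11, so this match follows from the choice. As a list, 4 of 5 measured mast cell and basophil markers were higher in the mean and 0 were called by limma. Their mean level was 7.01, 6.74 and 6.94 in the anti-CD40 libraries and 6.69, 6.95 and 6.31 in the vehicle libraries. Only Cma1 and Kit of the 5 lay above background in all libraries, and the part of mast cells in the Ccl11 values was not tested. All 6 measured fibroblast markers, genes of a cell type that makes CCL11, were higher in the mean by 0.10 to 0.43. The fibroblast list stood at 11.15, 11.35 and 11.18 in the anti-CD40 libraries and 11.15, 11.31 and 10.60 in the vehicle libraries, so that vehicle replicate 3 was low and the others lay between 11.15 and 11.35. Without vehicle replicate 3, 4 of the 6 fibroblast markers were higher and 2 lower. Of the 3 measured markers of epithelium, which also makes CCL11, 1 was higher and 2 lower, at a median difference of −0.11. The part of fibroblasts or epithelium in the Ccl11 values was not tested. Ccl24 lay nearest to the small heat shock protein gene Hspb2 (0.17), the peptidase gene Dpp4 (0.18) and Cd38 (0.23). Ccl8 lay nearest to Hsd11b1 (0.23), the lymphoid chemokine gene Ccl19 (0.29) and the interferon-induced GTPase gene Irgm2 (0.31). These distances grow with a gene's own spread, and Ccl8 had the widest range of the 6 genes. Its larger distances therefore do not show that its neighbours were less alike. Vwf, Cd38, Ccl19 and Irgm2 were not again among the nearest after centring within groups.

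**Figure D3:**
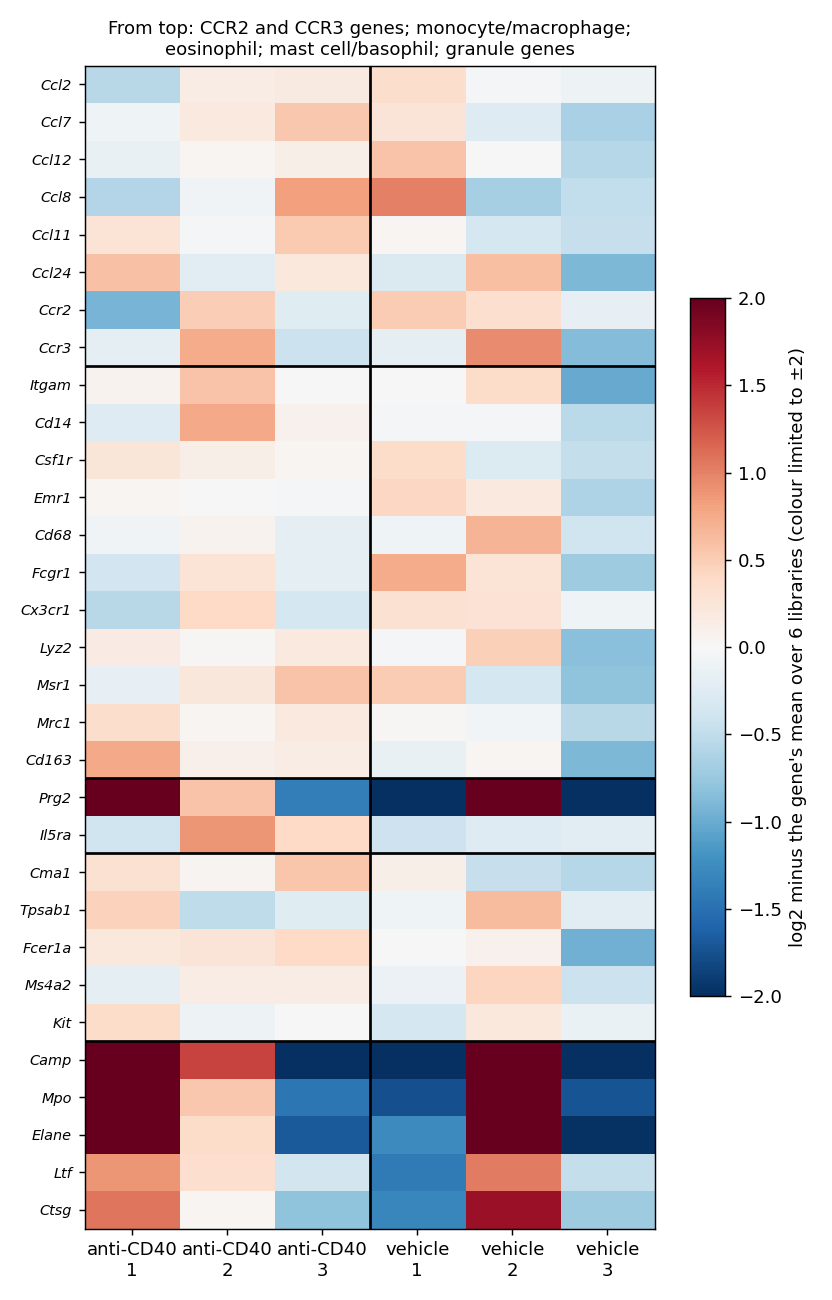
Log2 value minus the gene's mean over the 6 libraries (colour) for the 8 genes and for measured markers of monocytes and macrophages, eosinophils, mast cells and basophils, and immature granules (rows), with anti-CD40 libraries left of vehicle libraries (columns). Vehicle replicate 3 is low for most rows, Ccl8 is high in anti-CD40 replicate 3 and vehicle replicate 1, and granule genes are high in anti-CD40 replicates 1 and 2 and vehicle replicate 2.

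Other CC chemokine and receptor genes, with the CX3C pair Cx3cl1 and Cx3cr1, had 25 measured genes, of which limma called 0. In the mean 9 were higher and 16 lower in anti-CD40 tumours, at a median difference of −0.15 beside 0.04 over all genes. That median was 0.0060 without vehicle replicate 2, −0.049, −0.051 and −0.080 without anti-CD40 replicate 1, vehicle replicate 1 and anti-CD40 replicate 3, and −0.39 without vehicle replicate 3. With the same libraries left out, in this order, the median over all genes was 0.11, 0.04, 0.07, 0.07 and −0.09. The 4 genes of lowest p had groups that did not overlap, as did Ccl4 and Cx3cl1. In total 2 of the 25 genes were higher and 4 lower without overlap, beside 6.75% and 3.51% over all genes. Ccl4 lay above background in 0 anti-CD40 libraries and 2 vehicle libraries, so its separation is at the floor. Ccl9, a ligand gene of CCR1, was 11.22, 11.06 and 11.83 in the anti-CD40 libraries and 10.19, 10.71 and 9.58 in the vehicle libraries. Ccl6, likewise a CCR1 ligand gene, was 9.25, 9.26 and 9.80 in the anti-CD40 libraries and 8.49, 9.14 and 8.13 in the vehicle libraries. In Ccl9 and Ccl6, as in Ccl7 and Ccl11, anti-CD40 replicate 3 was the highest library and vehicle replicate 3 the lowest. Vehicle replicate 3 also had the lowest median over all genes, so its low place is not particular to these genes. Ccl20, the ligand gene of CCR6, and Ccl22, a ligand gene of CCR4, differed by −1.35 and −0.59. These 4 genes had adjusted p = 0.974 with limma.

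Further ligands of CCR3 were measured too. Ccl5, whose product also binds CCR1, was 5.36, 6.64 and 6.32 in the anti-CD40 libraries and 7.45, 6.73 and 6.44 in the vehicle libraries. Every vehicle library but replicate 3 lay above all anti-CD40 values, at a difference of −0.77 with an interval from −1.72 to 0.19. Ccl28, whose product binds CCR10 and CCR3, was 9.37, 7.66 and 6.83 in the anti-CD40 libraries and 4.92, 7.99 and 7.28 in the vehicle libraries. Its range of 4.46 log2 over 6 libraries was wider than that of any of the 8 genes, and the groups overlapped. The low end of that range was vehicle replicate 1, where Ccl28 had 14 counts, under the library's background limit of 25.2. Ccl26, an eotaxin gene, was at or below background in every library. Ccr1, the receptor gene for Ccl6, Ccl7 and Ccl9 products, was 7.24, 8.52 and 7.52 in the anti-CD40 libraries and 7.33, 7.28 and 6.94 in the vehicle libraries, a difference of 0.58 with groups that overlapped.

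**Figure D4:**
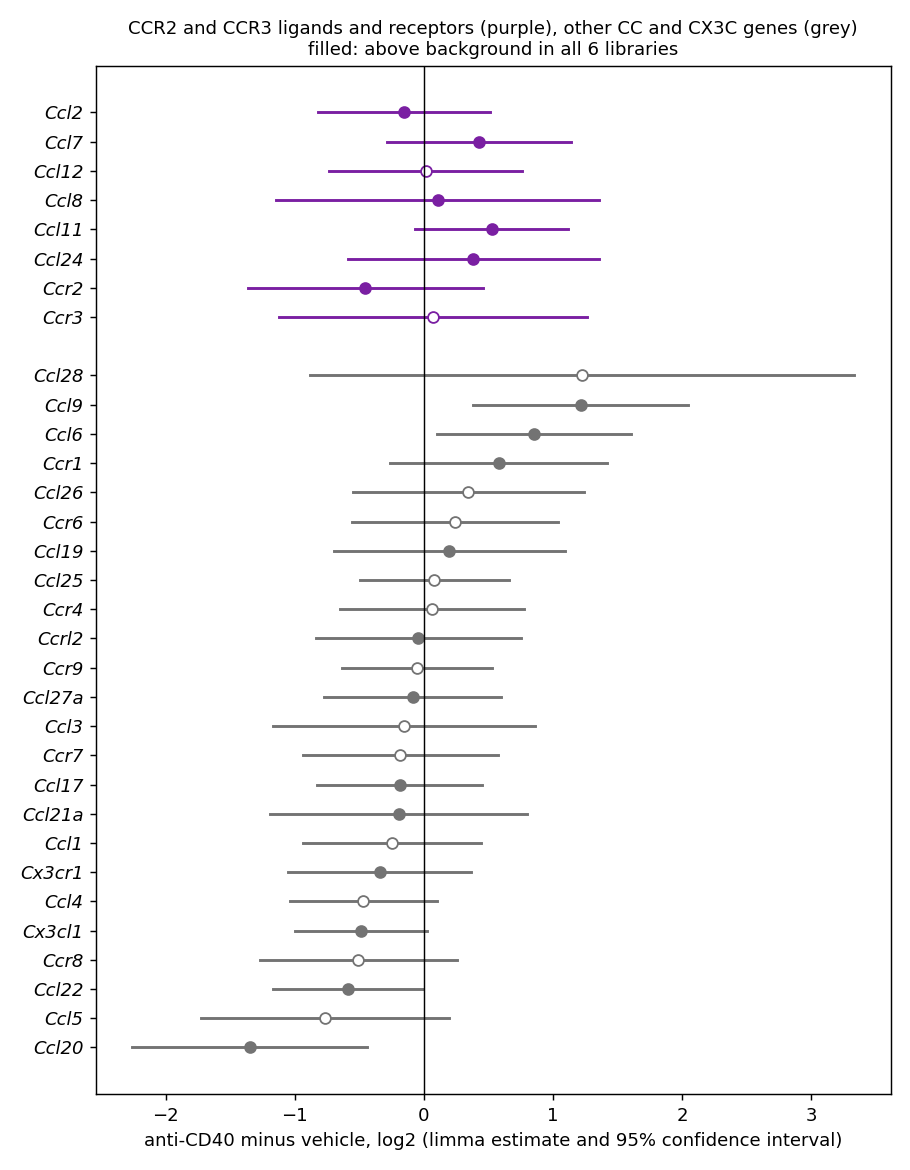
Anti-CD40 minus vehicle difference on the log2 scale (horizontal axis) with 95% confidence intervals from limma for the 8 genes (purple, upper block) and other chemokine and receptor genes of the list (grey, lower block, sorted by difference), with filled points for genes above background in all 6 libraries. All 8 intervals of the upper block include 0, and no gene shown in either block passed the test adjusted over 770 genes.

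No gene of the lists of known inducers of these chemokines was called. Of 24 inflammatory inducers of CCR2 ligands, among them cytokines, NF-κB subunits and STAT factors, 14 were higher and 10 lower in the mean. Their median difference was 0.06, or −0.05 to 0.18 with 1 library left out, and limma called 0. Those of lowest p were Rel, an NF-κB subunit gene, at −0.55, Fos, an AP-1 subunit gene, at −1.14, Il1a at −0.47 and Il6ra at 0.33, each with overlapping groups and limma adjusted p = 0.974. Fos was 10.72 ± 0.46 in anti-CD40 tumours and 11.86 ± 1.22 in vehicle tumours (SD, n = 3 each). Of 14 type 2 inducers of eotaxins, 7 were higher and 7 lower, at a median difference of 0.03 (−0.048 to 0.18 with 1 library left out) and 0 called by limma, and 7 lay below background in every library. Il5ra (0.59), Il1rl1, the receptor gene of interleukin 33 (0.94), Gata3 (−0.37) and Il13ra2 (0.27) had the lowest p. Only Il1rl1 of these 4 was above background in all libraries. It was 7.85 ± 1.44 in anti-CD40 tumours and 6.91 ± 0.45 in vehicle tumours (SD, n = 3 each). Its difference of 0.94 had an interval from −0.63 to 2.52, and the groups overlapped. That difference rested largely on 1 anti-CD40 library, at 9.52. The other anti-CD40 libraries lay below the highest vehicle value of 7.29.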

How the data were processed

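RNA of 6 tumour samples was measured. The values are the authors' deposited log2 normalized counts, so named by the file, of 770 genes with 6 positive and 8 negative controls. How they were counted, normalized and filtered is not given in the sources used here. All 4704 values equalled, within 0.05 of a count, the log2 of an offset of 4.55 plus a whole count multiplied by a library factor of 1.72 to 3.28. The offset understates differences of low genes.

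Groups were compared with limma 3.58.1 (R 4.3.3; lmFit and eBayes, 4 residual and 3.37 prior degrees of freedom) on those log2 values for the whole table, in two-sided tests adjusted by Benjamini-Hochberg over 770 genes. The procedure was tested on simulated data with changes larger than any difference of the 8 genes. It therefore does not show how often differences of their size would be called. Tables and plots used Python 3.11.15, pandas 2.3.3 and matplotlib 3.10.9.

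The 8 genes and all lists were chosen with earlier results of these data known. Named besides the 8 are up to 3 nearest profiles per gene, up to 4 genes of lowest p per list, and genes picked after their values were seen (Ccl4, Ccl5, Ccl26, Ccl28, Ccr1, Cx3cl1, Kit). Further markers of the cell type lists (Prg2, Cdh1, Epcam, Muc1, Cd2, Xcr1) are also named, under no rule set beforehand. Alternatives covered scaling, offset, background, filters, variance moderation, a replicate block and each library left out. One nearest profile and 1 gene of the chemokine list are not reported here. Probe sequences were not used, so cross-reaction between these related genes was not tested.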

Additional observations from a re-analysis of the deposited data

How the results depend on the processing

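Ccl7, Ccl11, Ccl24 and Ccr2 kept the direction of their difference under all 16 alternatives, and no alternative called any of the 770 genes. The other 4 genes turned sign, the cause of which was not tested. Gene filters, variance moderation and the replicate block leave a gene's difference unchanged, so the direction could not turn under these alternatives. Ccl12 was −0.0048 after centring on the library median, −0.028 with limma-voom and −0.042 with background subtracted, and Ccr3 was −0.23 with background subtracted. With 1 library left out, Ccl2 ranged from −0.29 to 0.083, Ccl8 from −0.28 to 0.64, Ccl12 from −0.27 to 0.30 and Ccr3 from −0.34 to 0.56. Quantile normalization left 1 of the 8 genes, Ccl11, and 87 of 770 genes with groups that did not overlap. Leaving out 1 library gave 0 to 2 such genes of the 8 and 111 to 191 of all genes, against 79 with 6 libraries, since smaller groups separate more easily. Deviations of same-numbered samples correlated at −0.43, 0.069 and 0.28, so the numbers were not taken as pairs. The replicate block gave 0 calls and, as its balance fixes, the unchanged difference of 0.52 for Ccl11. A stricter background limit of mean plus 3 SD left 6 genes above it in all libraries. After centring within groups, 12 of the 18 nearest profiles were shared. Leaving out libraries from the marker and inducer lists was chosen after seeing the data. Over all genes the median difference itself ran from −0.09 without vehicle replicate 3 to 0.11 without vehicle replicate 2. Depth limits Ccr3 and Ccl12, with 13 to 55 counts per library, and 3 libraries per group limit all intervals.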

Other observations

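Lists of other cell types were measured in the same libraries, and limma called 0 genes in each, with 1 T cell and 1 dendritic cell marker at an unadjusted p under 0.05 and 0 in the endothelial, neutrophil and epithelial lists. All 7 T cell markers were lower in the mean in anti-CD40 tumours, at a median difference of −0.26, but 4 of the 7 lay above background in all libraries and Cd2 in none. That median was −0.024 without anti-CD40 replicate 1, −0.08 without vehicle replicate 1 and −0.60 without anti-CD40 replicate 2. All 4 measured dendritic cell markers were lower in the mean, at a median difference of −0.26, but 1 lay above background in all libraries and Xcr1 in none. Without vehicle replicate 3 and anti-CD40 replicate 2 the dendritic median was −0.50 and −0.48. Of the endothelial markers 5 of 6 were higher in the mean, at a median difference of 0.24 that was 0.075 without anti-CD40 replicate 1 and 0.44 without anti-CD40 replicate 2. Of the neutrophil markers 3 of 4 were higher, at a median difference of 0.52 that ranged from −0.04 without anti-CD40 replicate 2 and 0.13 without vehicle replicate 3 to 1.02 without anti-CD40 replicate 3. Of the 3 epithelial markers 1 was higher and 2 lower, at a median difference of −0.11. Cdh1 of the epithelial list and 1 T cell marker were lower in every anti-CD40 library than in any vehicle library. Higher without overlap were 2 monocyte and macrophage markers, 1 mast cell and basophil marker and 1 fibroblast marker. Over all genes 3.51% were lower and 6.75% higher in this way.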
